A study of Mus musculus with 2 samples.

Results

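The genes described here encode the growth factors of the FGF, PDGF, VEGF, angiopoietin, EGF, HGF and KIT families and the receptor tyrosine kinases that bind them. They were taken from the arrays by gene symbol, as every probe whose platform symbol belongs to 1 of these families by spelling or by name, which gave 72 probes for 59 genes out of 16675 gene symbols. Of the symbols sought, Areg, Btc and Nrg1 had no probe under that name and were not analysed here. The spelling also caught 4 genes that are neither ligand nor receptor tyrosine kinase of these families, namely Pdgfrl, Fgfr1op, Fgfr1op2 and Erbb2ip, which are described last. The samples were mouse embryonic fibroblasts labelled as Xbp1 knockout, 1 from day 3 of induced adipogenesis, the formation of fat cells, and 1 from day 0. The day 3 cells had received 72 h of induction with troglitazone at 5 µM, which activates the receptor PPARγ, insulin at 10 µg/ml, DXM at 5 µM and IBMX at 0.25 mM, which blocks the breakdown of cAMP. The day 0 cells were at confluence, when that treatment began. No cells with intact Xbp1 were analysed here, and the labels do not say how the knockout was made or whether the cells are 1 clone. The question was how the messenger RNA of each gene on day 3 stood against day 0.

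Ligands of these families are secreted or shed from the cell surface and bring receptor chains together, whereupon the receptors phosphorylate each other and pass the signal to the RAS and MAP kinase cascade and to PI3 kinase. In fibroblasts, PDGF and FGF receptors drive division and migration, and PDGFRα marks precursors of fat cells. VEGF and the angiopoietins act mainly on the endothelium, whose growth accompanies that of fat tissue, and FGF10 is known as a factor that preadipocytes need.

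Each day was 1 single-colour array, so the differences have no replicates behind them and no p-value is given. Differences are log2 of normalized fluorescence intensity, day 3 minus day 0, and a gene counts as above the detection threshold where it read more than 122, the median over all gene probes. The repeat-spot SD beside a difference comes from control features printed as 5 or 6 spots on each array. It was between 0.34 and 0.43 from the median feature and between 0.58 and 0.89 when pooled over features, depending on brightness. Being a spread of spots within an array, it leaves out variation between arrays as well as between cultures. Gene probes had a median raw intensity of 166 on the day 3 array and 78 on the day 0 array, and empty spots had a median of 0 on each. Xbp1 itself read 13561 on day 3 and 20936 on day 0 (-0.63, pooled repeat-spot SD 0.89), and since the sources used here do not place its probe relative to the deletion, that signal is no check of the label. Of 9 fibroblast markers, 8 exceeded the threshold on each day, among them Col1a1, Col1a2, Col3a1 and Vim.

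The growth factor system as a whole did not move one way. Of the 59 genes, 33 were above the threshold on at least 1 day (55.9%, against 64.0% of all genes) and 29 on both, while 7 of the 59 read within 0.2 log2 units of the threshold on at least 1 day. Among the 33, 2 were at least 2-fold higher on day 3, against 12.7% of all genes that passed the same filter, and 5 were at least 2-fold lower, against 10.3% of all genes. As shares of the 33 these are 6.1% and 15.2%. At the lower bound, 2 genes were 2-fold higher, against 10.2% of all genes, and 4 were 2-fold lower, against 8.51%. The median difference of the 33 genes was 0.18, against 0.03 for all genes, while their mean was -0.10. The median and the mean thus differ in sign, and the largest negative values were those of Fgf2 (-3.45) and Kdr (-3.26), which lay below the threshold on day 3. Of the 29 genes that exceeded the threshold on each day, 1 was 2-fold higher, against 10.1% of all such genes, and 3 were 2-fold lower, against 8.43%. Differences beyond the pooled repeat-spot SD were seen in 9 of the 29, 3 of them higher on day 3 (Fgf22, Angpt1 and Angpt2) and 6 lower (Met, Vegfc, Pdgfc, Hbegf, Egf and Vegfb). The share of all genes beyond that SD was not computed, so the 9 cannot be set against it. Egf was beyond its SD under only some of the scalings.

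**Figure D1:**
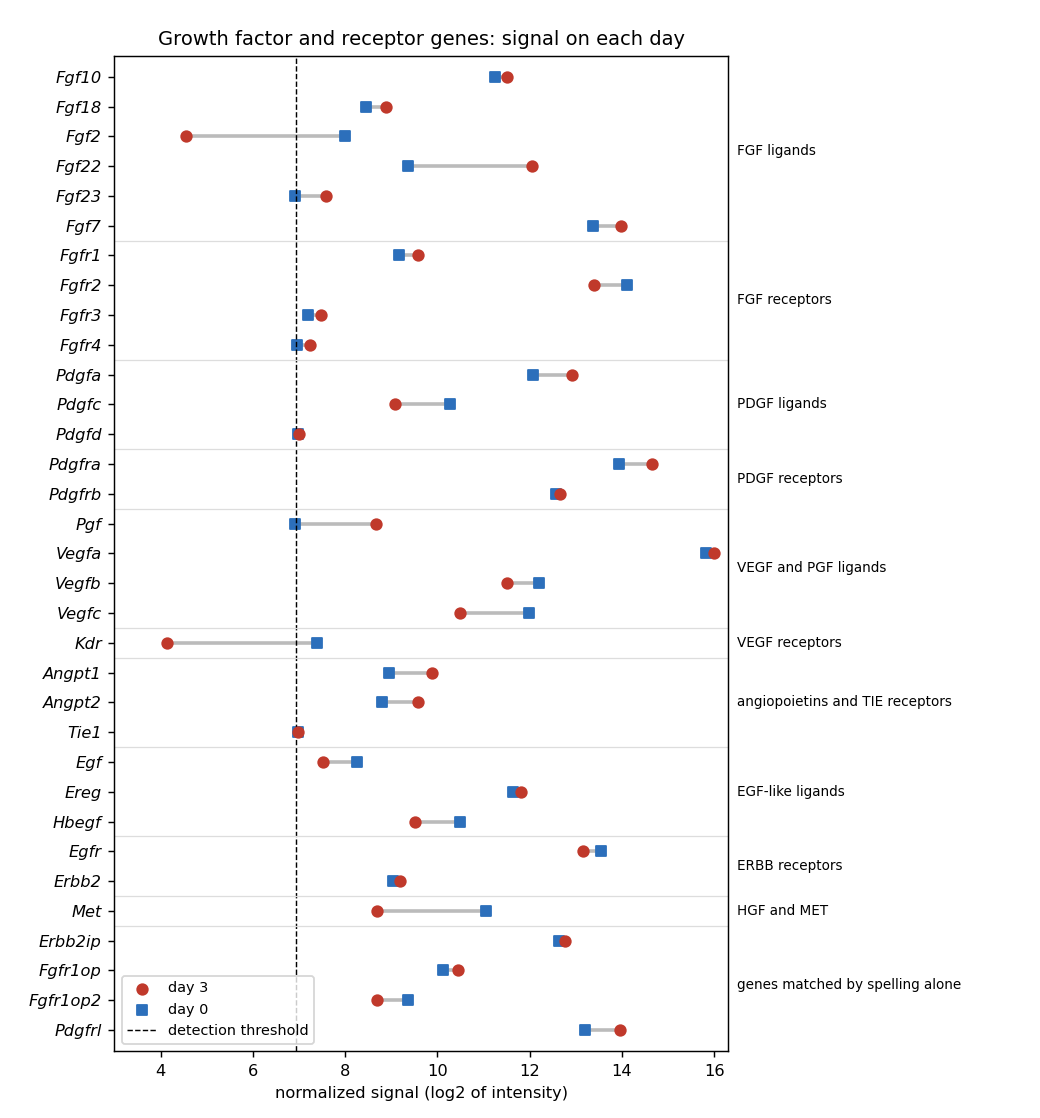
Normalized signal, as log2 of intensity, of the 33 genes above the detection threshold on at least 1 day, with day 3 as circles and day 0 as squares, in blocks by role. The longest bars belong to Fgf2 and Kdr, which were below the dashed threshold on day 3, and to Fgf22 and Met, which were above it on both days.

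The promoters of the 6 genes that differed by at least 2-fold also at their lower bound are shown because these genes carry the differences of the family. Each is a window of 300 bases, 250 before and 50 after the transcription start, from RefSeq on GRCm38.p6, written 5′ to 3′ along the gene, and where Pgf had 2 windows the one listed first is shown. Capitals mark the GC box GGGCGG, the CCAAT box CCAAT, the E-box CACGTG and the cAMP response element half-site TGACG, each on either strand.
Fgf22, chr10:79754859-79755158, plus strand: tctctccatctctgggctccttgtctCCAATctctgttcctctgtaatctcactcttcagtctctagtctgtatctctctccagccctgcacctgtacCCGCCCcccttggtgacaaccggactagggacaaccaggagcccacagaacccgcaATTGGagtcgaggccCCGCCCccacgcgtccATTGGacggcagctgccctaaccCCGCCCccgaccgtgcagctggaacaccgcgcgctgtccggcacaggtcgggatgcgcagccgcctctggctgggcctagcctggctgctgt
Pgf, chr12:85177264-85177563, minus strand: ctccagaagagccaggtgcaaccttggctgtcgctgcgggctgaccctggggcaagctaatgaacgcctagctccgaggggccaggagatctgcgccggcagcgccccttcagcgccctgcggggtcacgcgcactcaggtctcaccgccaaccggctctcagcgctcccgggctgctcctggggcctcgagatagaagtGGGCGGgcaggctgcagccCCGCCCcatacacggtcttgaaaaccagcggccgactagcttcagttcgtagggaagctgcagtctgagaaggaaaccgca
Met, chr6:17463707-17464006, plus strand: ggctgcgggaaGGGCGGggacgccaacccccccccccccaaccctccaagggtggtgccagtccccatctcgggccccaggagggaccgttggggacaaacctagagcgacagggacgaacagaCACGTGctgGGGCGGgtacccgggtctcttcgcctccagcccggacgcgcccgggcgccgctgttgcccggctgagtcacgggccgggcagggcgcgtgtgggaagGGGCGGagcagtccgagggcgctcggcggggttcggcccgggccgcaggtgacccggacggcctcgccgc
Vegfc, chr8:54077282-54077581, plus strand: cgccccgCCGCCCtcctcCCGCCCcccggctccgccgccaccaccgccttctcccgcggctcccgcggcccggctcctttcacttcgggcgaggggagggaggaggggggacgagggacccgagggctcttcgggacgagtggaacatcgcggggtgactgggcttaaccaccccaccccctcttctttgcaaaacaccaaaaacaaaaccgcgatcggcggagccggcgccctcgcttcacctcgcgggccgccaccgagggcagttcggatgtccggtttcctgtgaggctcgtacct
Pdgfc, chr3:81036166-81036465, plus strand: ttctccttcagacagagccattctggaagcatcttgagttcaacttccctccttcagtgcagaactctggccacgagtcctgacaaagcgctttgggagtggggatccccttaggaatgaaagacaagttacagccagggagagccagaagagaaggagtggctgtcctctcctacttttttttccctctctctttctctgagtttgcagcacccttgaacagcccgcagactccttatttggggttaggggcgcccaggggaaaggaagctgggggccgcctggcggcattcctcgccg
Fgf2, chr3:37348403-37348702, plus strand: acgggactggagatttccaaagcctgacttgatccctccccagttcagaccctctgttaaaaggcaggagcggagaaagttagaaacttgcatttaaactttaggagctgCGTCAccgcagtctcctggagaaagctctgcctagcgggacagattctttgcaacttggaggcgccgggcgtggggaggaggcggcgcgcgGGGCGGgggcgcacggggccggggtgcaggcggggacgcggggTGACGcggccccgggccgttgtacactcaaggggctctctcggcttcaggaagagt
Matches to these letters are a description and not binding sites. The GC box was found in 5 of these 6 windows (Fgf22, Pgf, Met, Vegfc and Fgf2), against 63.6% of the first windows of 44 member genes that the table holds and 35.7% of all 32851 windows. The members' windows were richer in G and C than others, with a median of 62.2% against 52.7%. The Fgf22 window held 3 CCAAT boxes, and 11 of the 44 member windows and 37.4% of all windows held at least 1. The Met window alone of the 6 held an E-box, which 7.15% of all windows contain, and the Fgf2 window alone held the half-site TGACG, which 20.8% contain. The full element TGACGTCA, which includes that half-site, was in 1 of 44 member windows, that of Flt1, against 1.79% of all windows. The TATA box TATAAA was in 11.4% of the members' windows and 13.6% of all windows and in none of the 6 shown.

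Of the 18 FGF ligands, 12 were below the threshold on both days, and 1 of the other 6, Fgf22, had the highest difference of the system. Fgf22, which in mouse is known for signalling at synapses and in skin, had a signal of 4231 on day 3 and 656.5 on day 0, so it was 6.44-fold higher on day 3 (log2 difference 2.69, repeat-spot SD 0.42). Its promoter is the first of those shown above. The other probe for Fgf22 stayed below the threshold, with signals of 12.5 on day 3 and 15.5 on day 0, so the difference rests on 1 of 2 probes. Fgf2, a broad mitogen of mesenchymal cells, was below the threshold on day 3 with a signal of 23.5 and above it on day 0 with 256, which makes it at least 2.10-fold lower on day 3. Fgf7 and Fgf10, which mesenchymal cells secrete to act on epithelial forms of FGFR2, were bright on both days. Fgf7 had a signal of 16209 on day 3 and 10603 on day 0, and the difference of 0.61 exceeded the repeat-spot SD of 0.35 but not the pooled SD of 0.89. The 2 probes of Fgf10 went opposite ways. The brighter one gave 2893 on day 3 and 2458 on day 0 (0.23), while the dimmer one gave 125.0 on day 3, close to the threshold, and 550.0 on day 0, which is 4.40-fold lower on day 3 (-2.14). No direction is given for Fgf10. Fgf18, a regulator of skeletal growth, had signals of 474.0 on day 3 and 349.5 on day 0 (0.44, pooled SD 0.74). Fgf23, a hormone of phosphate balance, read 192.5 on day 3 and 120.5 on day 0, just under the threshold, and was at least 1.58-fold higher on day 3, a log2 difference of 0.68 within the pooled SD of 0.69.

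Those 12 FGF ligands did not exceed the threshold on either day, with signals of at most 104.0 on day 3 and 111.0 on day 0. They were Fgf1, Fgf3, Fgf4, Fgf5, Fgf6, Fgf8, Fgf9, Fgf15, Fgf16, Fgf17, Fgf20 and Fgf21. Fgf21, a fasting hormone that acts on fat tissue and that PPAR receptors induce in mouse, read 104.0 on day 3 and 93.5 on day 0. Fgf15, the mouse intestinal hormone of bile acid control, read 86.5 on day 3 and 15.5 on day 0. The 4 intracellular FGF homologous factors Fgf11, Fgf12, Fgf13 and Fgf14, which bind sodium channels instead of FGF receptors, were also below the threshold, at no more than 102.0 on day 3 and 84.0 on day 0. Of the 26 member genes below the threshold on both days, 19 on day 3 and 19 on day 0 still exceeded the 95th percentile of empty spots in raw intensity, which was 9 on day 3 and 7 on day 0, so these readings do not establish that the genes were off.

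All 4 FGF receptor genes exceeded the threshold on each day and none differed by 2-fold by its brightest probe. Fgfr2 was the one receptor with a lower signal on day 3, at 10834 on day 3 and 17741 on day 0 (-0.71, pooled SD 0.89). Its dimmer probe gave the same direction and a larger difference, with 1368 on day 3 and 3087 on day 0, or 2.26-fold lower on day 3 (-1.17, pooled SD 0.58). Fgfr1 read 766.0 on day 3 and 573.8 on day 0 (0.42, repeat-spot SD 0.34, pooled 0.74). Fgfr3 read 179.0 on day 3 and 146.5 on day 0, and Fgfr4 read 151.5 on day 3 and 124.0 on day 0. Both differences were 0.29, less than the repeat-spot SD of 0.43. So the signals of Fgf7, the ligand, and Fgfr2, the receptor gene whose epithelial form it binds, stood on opposite sides of 0. The sources used here do not say which form of Fgfr2 the probes read.

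In the PDGF system, the A chain and the α receptor were both higher on day 3. Pdgfa had signals of 7675 on day 3 and 4299 on day 0 by its brighter probe (0.84, repeat-spot SD 0.35, pooled 0.89). Its other probe gave 3980 on day 3 and 1604 on day 0, which is 2.48-fold higher on day 3 (1.31, pooled SD 0.58). Pdgfra, the receptor that binds PDGF-AA, read 25959 on day 3 and 15721 on day 0, which is 1.65-fold higher on day 3 (0.72, repeat-spot SD 0.35, pooled 0.89). Pdgfrb, the receptor for PDGF-BB, read 6415 on day 3 and 6096 on day 0, a difference of 0.07 that took both signs under the scalings tried. Pdgfc, a ligand of PDGFRα that is activated by proteolysis, went the other way, with 543.0 on day 3 and 1245 on day 0, or 2.29-fold lower on day 3 (-1.20, pooled SD 0.74). The second probe of Pdgfc was below the threshold on both days, at 30.5 on day 3 and 51.0 on day 0. Pdgfd read 128.0 on day 3 and 127.0 on day 0, and Pdgfb stayed under the threshold at 46.0 on day 3 and 87.0 on day 0. The 2 ligands of PDGFRα with a clear signal therefore differed in opposite directions while their shared receptor was higher on day 3.

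**Figure D2:**
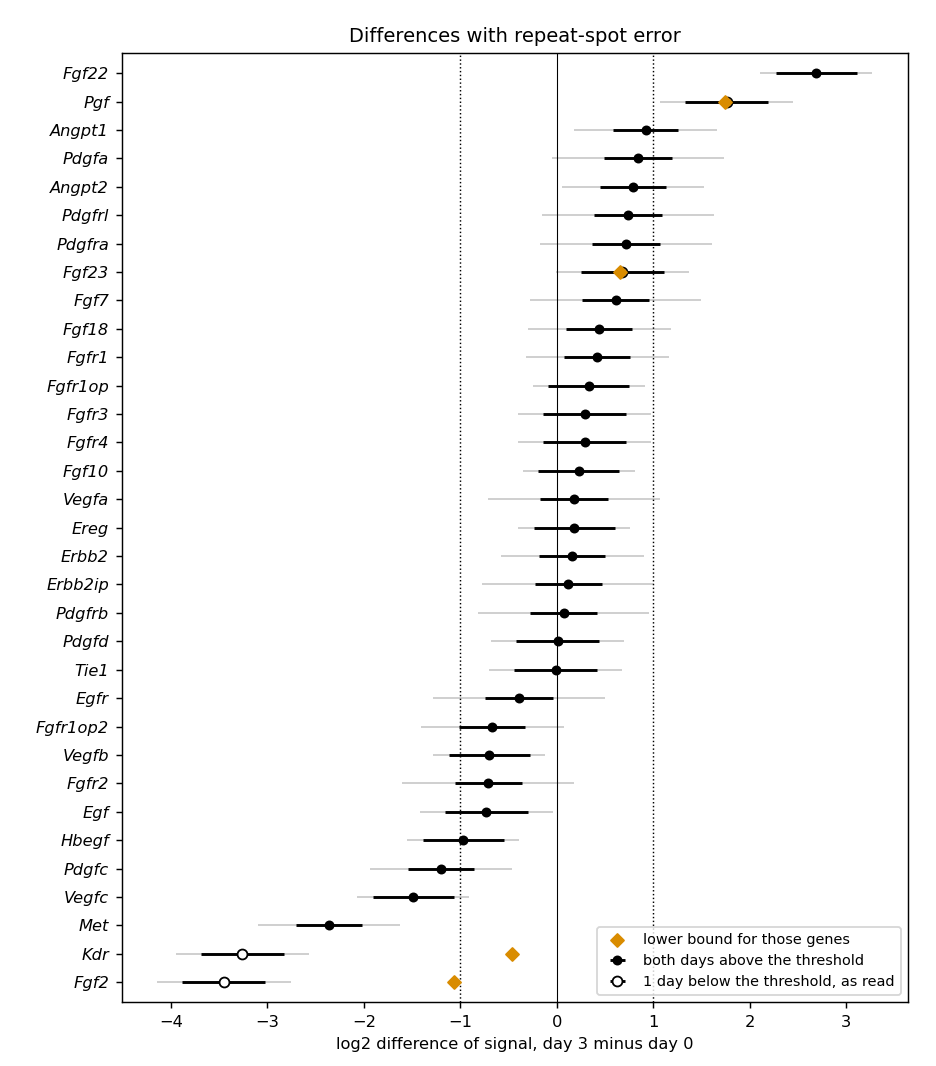
Log2 difference of signal, day 3 minus day 0, for the 33 genes above the detection threshold on at least 1 day. Black bars give the repeat-spot SD, grey bars the pooled one, open circles genes below the threshold on 1 day with their lower bound as diamonds, and dotted lines 2-fold. The points run from 2.69 for Fgf22 to -3.45 for Fgf2, whose bound lies just past 2-fold.

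Among the VEGF ligands, Pgf and Vegfc stood apart in opposite directions. Pgf, which encodes placental growth factor, a ligand of FLT1, read 407.0 on day 3 and 120.5 on day 0, just under the threshold, and was at least 3.34-fold higher on day 3 (1.76, pooled SD 0.69). Vegfc, the main growth factor of lymphatic endothelium, read 1436 on day 3 and 4037 on day 0, or 2.81-fold lower on day 3 (-1.49, pooled SD 0.58). Vegfb, a FLT1 ligand tied to fatty acid transport, was 1.62-fold lower, with 2921 on day 3 and 4736 on day 0 (-0.70, pooled SD 0.58). Vegfa, the chief angiogenic factor, was at the ceiling of the scanner on day 3 with a raw intensity of 65475, against 50384 on day 0. Its difference was 0.18 after quantile normalization and between -0.29 and 0.15 relative to all genes under the other scalings, so no direction is given. Vegfd, which the platform calls Figf and which the spelling rule did not catch, was 2.51-fold lower on day 3, with 569.0 on day 3 and 1430 on day 0 (-1.33). The 2 ligands that act on the lymphatic receptor FLT4 were thus both lower on day 3.

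The receptor tyrosine kinase genes for these ligands were dim. The co-receptor gene Nrp1, named after its value was seen, was bright, at 11801.5 on day 3 and 7492.5 on day 0 (0.66). Its other probe gave 0.52. Kdr, which encodes VEGFR2, read 17.5 on day 3, below the threshold, and 168.0 on day 0, which makes it at least 1.38-fold lower on day 3. Flt4 read 110.0 on day 3 and 112.5 on day 0, and Flt1 read 11.5 on day 3 and 63.5 on day 0, all below the threshold. Both angiopoietins, ligands of the endothelial receptor TEK, were higher on day 3. Angpt1, the activating ligand, read 942.0 on day 3 and 496.5 on day 0 (0.92, repeat-spot SD 0.34, pooled 0.74). Angpt2, which can oppose it, read 763.0 on day 3 and 442.0 on day 0 (0.79, pooled SD 0.74). Their receptor gene Tek was below the threshold at 10.0 on day 3 and 19.5 on day 0. Tie1, the partner receptor, read 125.0 on day 3 and 125.5 on day 0. Of 9 endothelial markers on the array, 2 were above the threshold, Pecam1 at 568.5 on day 3 and 189.5 on day 0 and Egfl7 at 404.5 on day 3 and 327.0 on day 0. The summed signal of the 9 was 1415 on day 3 and 927 on day 0, with Cdh5 and Vwf below the threshold and Icam2 at the floor of 10 on both days. In bulk RNA fewer cells of a type and less RNA per cell cannot be told apart. The part of endothelial cells in the values of Kdr was not tested.

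Of the 3 EGF family ligands of the set with a signal, 2 were lower on day 3. Outside the spelling rule, Epgn, which encodes epigen, read 231.5 on day 3 and 145.0 on day 0 (0.67, named after its value was seen). Nrg3, given further on, was also higher by its one detected probe, so the family as a whole has no one direction. Hbegf, a membrane-bound EGFR ligand released by ADAM proteases, read 731.0 on day 3 and 1435 on day 0, or 1.96-fold lower on day 3 (-0.97, pooled SD 0.58). Egf itself read 184.0 on day 3 and 305.5 on day 0 (-0.73, pooled SD 0.69). Under the other 4 scalings that kept Egf, its difference was between -0.78 and -0.46, so it did not always exceed that SD. Ereg, which encodes epiregulin, read 3584 on day 3 and 3160 on day 0 by its brighter probe (0.18, repeat-spot SD 0.42). Its second probe was below the threshold at 10.0 on day 3 and 51.0 on day 0. Tgfa stayed under the threshold at 48.0 on day 3 and 57.0 on day 0. Egfr, the receptor they share, read 9088 on day 3 and 11914 on day 0 (-0.39, repeat-spot SD 0.35, pooled 0.89). Its partner Erbb2 read 584.0 on day 3 and 521.0 on day 0 (0.16, repeat-spot SD 0.34). Erbb3, at 77.0 on day 3 and 43.5 on day 0, and Erbb4, at 12.5 on day 3 and 10.0 on day 0, were below the threshold. Both detected ERBB receptors thus differed by less than the pooled error.

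Met, the receptor for hepatocyte growth factor, had the largest difference among receptors measured above the threshold on both days. Its signal was 414.0 on day 3 and 2127 on day 0, so it was 5.14-fold lower on day 3 (-2.36, repeat-spot SD 0.34, pooled 0.74). The difference was between -2.45 and -2.34 under the 5 other scalings and -2.23 with 50 added to each signal. Settings that change only the filter leave the Met difference as it was. Its ligand gene Hgf stayed at the floor of 10 on both days, and so no fold is given. Plau, which encodes urokinase, an activator of pro-HGF, was 5.87-fold lower on day 3, with 1035 on day 3 and 6072 on day 0 (-2.55). Mst1r, which encodes the related receptor RON, read 259.0 on day 3 and 139.5 on day 0 (0.89). Kit and its ligand Kitl were below the threshold, Kit at 22.0 on day 3 and 14 on day 0 and Kitl at 18.0 on day 3 and 10.0 on day 0. Of 8 mast cell markers, which go with Kit, 1 was above the threshold. Of 9 epithelial markers, which go with Met, 3 were above it on at least 1 day, and their summed signal was 1129 on day 3 and 1119 on day 0. Krt14 was 2.57-fold higher on day 3. Cldn4 read 480.5 on day 3 and 514.5 on day 0 (-0.10). Krt18 read 114.5 on day 3, under the threshold, and 148.0 on day 0, and Cdh1 was below the threshold on both days. The raw sums were 1433 on day 3 and 767 on day 0, and the part of epithelial cells in the value of Met was not tested.

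Genes with several probes show how far a single probe can be read. Of 12 such genes, 5 had more than 1 probe above the threshold (Fgf10, Fgfr2, Pdgfa, Fgfr1op2 and Pdgfrl), and in 2 of these, Fgf10 and Fgfr1op2, the probes differed in sign. The directions of Fgfr2, Pdgfa and Pdgfrl were the same by each detected probe. The direction of Fgf22 rests on 1 probe, as does that of Pdgfc, because the other was below the threshold. Each of Met, Vegfc, Pgf, Fgf2 and Kdr had a single probe.

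**Figure D3:**
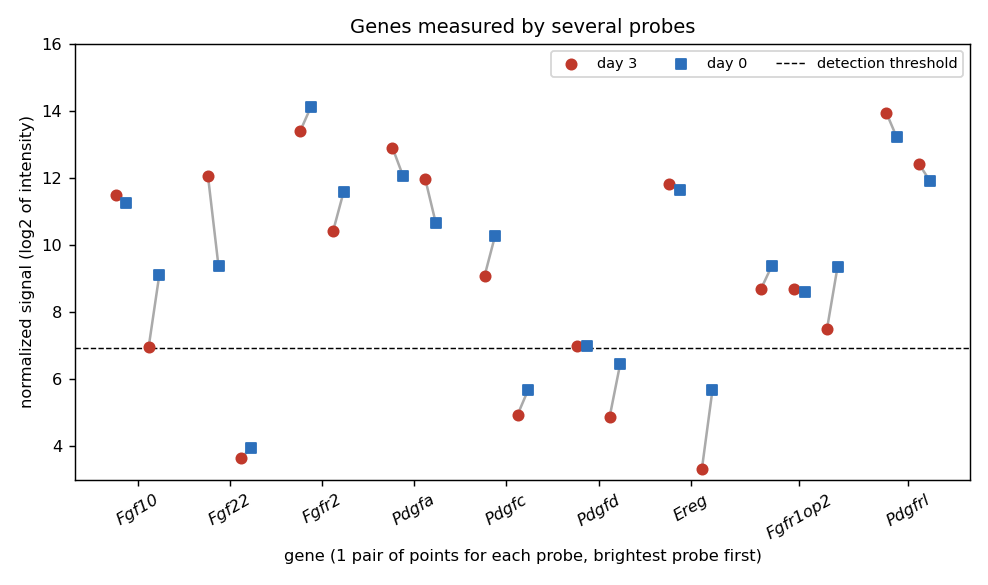
Normalized signal, as log2 of intensity, for each probe of the 9 genes that had several probes and at least 1 above the detection threshold, with day 3 as circles to the left of day 0 as squares. The probe pairs of Fgf10 slope in opposite directions, and those of Fgfr2, Pdgfa and Pdgfrl slope the same way.

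Of the genes caught by spelling alone, Pdgfrl, a gene whose product resembles a PDGF receptor ectodomain without a kinase, read 15779 on day 3 and 9462 on day 0 (0.74, pooled SD 0.89). Its other probe gave 5451 on day 3 and 3887 on day 0 (0.49). Fgfr1op, a centrosomal gene now called Cep43, read 1397 on day 3 and 1110 on day 0 (0.33). Erbb2ip, a scaffold gene now called Erbin, read 6927 on day 3 and 6357 on day 0 (0.12). The brightest probe of Fgfr1op2 gave 416.0 on day 3 and 661.5 on day 0 (-0.67), and its other probes gave 0.08 and -1.85. None of the 4 differed by 2-fold by its brightest probe, and without them the median over the other 29 detected genes was still 0.18.

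By their brightest probes, genes that carry or limit the signal of these receptors were spread around 0, as all genes were (median 0.03, with 12.7% 2-fold higher and 10.3% 2-fold lower). Of 22 relay genes above the threshold, from adaptors to RAS, RAF, MAP kinases and PI3 kinase, 1 reached 2-fold toward day 3 and 2 toward day 0, with a median of -0.12. The adaptor gene Gab1 was 2.34-fold higher, with 2760 on day 3 and 1177 on day 0. Nras, with 2035 on day 3 and 5781 on day 0, was 2.84-fold lower. Hras, listed as Hras1, was 2.13-fold lower and gave -1.16 by its other probe, and the ribosomal S6 kinase gene Rps6ka3 was 1.86-fold lower. These are values of single probes without a replicate, except for Hras. Shc1, Mapk3 and Akt2, named after their values were seen, each had another probe that was more than 2-fold lower on day 3. Their brightest probes did not reach 2-fold, and those of Shc1 and Akt2 were higher on day 3. A further probe of Akt2 was also higher, and the probes of Ptpn11, likewise named afterwards, differed in sign. The counts of relay genes therefore hold for the brightest probes only.

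Among 18 detected feedback inhibitors and ETS targets, 3 reached 2-fold toward day 3, against 12.7% of all genes, and 1 toward day 0, against 10.3%, with a median of -0.04. Lrig2, from a family whose member Lrig1 restrains ERBB receptors, was 3.30-fold higher, with 554.0 on day 3 and 168.0 on day 0. Spred2, an inhibitor of RAS signalling, was 3.12-fold higher by its brightest probe (1.64) and gave 0.43 by its other probe. The ubiquitin ligase gene Cblb was 2.77-fold higher (1.47) and gave 0.63 by its other probe. Sh2b3, an adaptor that restrains cytokine receptors, was 2.27-fold lower (-1.18) and gave -1.26 and -0.78 by its other probes. The ERK-responsive genes Spry2 (-0.75), Dusp6 (-0.77) and Etv5 (0.40), named here after their values were seen, did not reach 2-fold. Spry2 and Dusp6 were nonetheless lower by more than the pooled SD of 0.58, while Etv5 was within it. By its other probe Spred1 gave -1.87 against -0.53, and Dusp4 gave 0.78 against -0.92, both also named after their values were seen. The median of the list stood near that of all genes.

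Of 13 detected co-receptors and ligand-binding proteins, 1 was 2-fold higher on day 3, against 12.7% of all genes, and 1 was 2-fold lower, against 10.3%, with a median of 0.21. Fgfrl1, an FGF receptor without a kinase, was 2.07-fold higher, with 1895 on day 3 and 913.5 on day 0. Flrt3, an FGF receptor partner, was 2.14-fold lower, with 593.5 on day 3 and 1270 on day 0, while its other probe was below the threshold on both days. Sdc1, a heparan sulfate proteoglycan gene, gave 0.86 by its brightest probe and -0.28 by its other, and the perlecan gene Hspg2 gave -0.68, -0.28 and -0.46. Klb, the co-receptor that FGF21 needs, named after its value was seen, was below the threshold at 10.0 on day 3 and 14 on day 0.

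Proteases that process these ligands, and their inhibitors, were also spread around 0. Of 12 detected genes, 1 was 2-fold higher on day 3, against 12.7% of all genes, and 4 were 2-fold lower, against 10.3%, with a median of -0.09. At the lower bound, 1 was 2-fold higher, against 10.2% of all genes, and 2 were 2-fold lower, against 8.51%. Adam12 and Pcsk6, under the threshold on day 3, were at least 1.28-fold and 1.20-fold lower. Adam10 gave 0.37 by its brightest probe and -0.92 by its other. These 3 were named after their values were seen. Of the 10 above the threshold on each day, 1 was 2-fold higher and 2 were 2-fold lower, with a median of 0.08. Besides Plau, the inhibitor gene Timp3 was 3.64-fold lower on day 3, with 8750 on day 3 and 31880 on day 0, and its other probe gave -3.50. TIMP3 is known to inhibit ADAM17, the enzyme that releases several EGFR ligands. Adamts1, a protease whose product binds VEGF, was 2.14-fold higher (1.09) by its brightest probe and gave -0.15 by its other. Furin, which cleaves several growth factor precursors, was 1.61-fold higher on day 3.

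Related ligands and receptors that the spelling did not cover had 8 detected genes, of which 2 reached 2-fold toward day 3, against 12.7% of all genes, and 3 toward day 0, against 10.3% (median 0.09). Csf1, a ligand of the KIT-related receptor CSF1R, was 3.49-fold lower, with 1907 on day 3 and 6659 on day 0. Csf1r, the receptor gene, named after its value was seen, read 51.5 on day 3, under the threshold, and 269.5 on day 0, and was at least 2.21-fold lower on day 3. Flt3l, the ligand of FLT3, was 2.36-fold higher, with 912.0 on day 3 and 386.0 on day 0. Nrg3, an ERBB4 ligand gene named after its value was seen, read 407.0 on day 3 and 106.5, under the threshold, on day 0, and was at least 3.34-fold higher. The other probes of Csf1r and Nrg3 were below the threshold on both days, so each value rests on 1 of 2 probes.

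Other cell type markers moved with the comparison in part. Of 8 mural cell markers, 7 were above the threshold on at least 1 day. Rgs5 was 9.31-fold higher on day 3 and Notch3 5.09-fold higher, and Acta2 was 2.73-fold lower. The summed signal of the 8 was 24220 on day 3 and 46585 on day 0, of which Acta2 was the greater part. Of 8 leukocyte markers, 4 were above the threshold, with Itgam 5.05-fold higher on day 3 with Ptprc at the floor of 10 on both days, and with a summed signal of 43843 on day 3 and 17132.5 on day 0, of which Cd14 alone gave 39698.5 on day 3 and 16036 on day 0. Of 10 adipocyte markers, 3 were above the threshold and all 3 were 2-fold higher on day 3 (Lpl, Lipe and Pnpla2). Adipoq and Fabp4 were below the threshold on both days, so no fold is given for them. Adipoq read 120.5 on day 3, just under the threshold, and lower on day 0. Fabp4 read 59.5 on day 3 and 10.5 on day 0. Cfd, also below the threshold, went the other way, with the floor of 10 on day 3 and 15.5 on day 0. The part of these cells in the values of Pdgfrb, Angpt1 and Pdgfra was not tested.

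**Figure D4:**
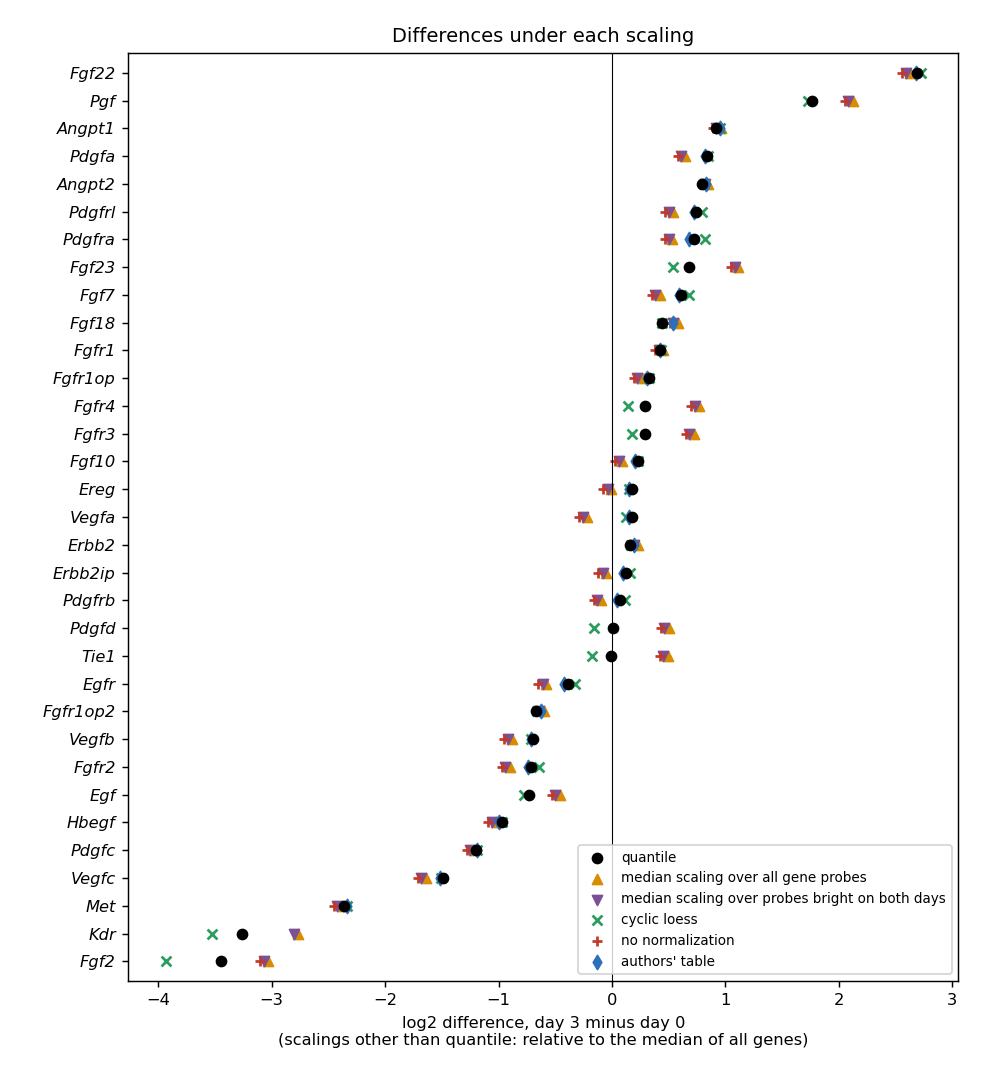
Log2 difference, day 3 minus day 0, of each of the 33 detected genes under quantile normalization (black) and under 5 other scalings, which are drawn relative to the median of all genes. The sign was the same in every scaling for 27 genes, and it was not for 6 genes near 0, none of which exceeded 0.18 in size under quantile normalization.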

How the data were processed

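Messenger RNA was measured on single-colour Cy5 arrays that Phalanx labelled, per the labels' protocols, in 1 sample per day. The deposited per-sample tables hold a linear intensity for each of 39200 spots, from which background seems to have been subtracted, since 7402 empty spots centred on 0. The sources used here name neither scanner nor image software. A second deposited table, with intensity values that the authors normalized, covers 11482 of 29922 gene probes and served as an alternative.

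The gene probes' intensities were quantile normalized with limma 3.58.1 (R 4.3.3), floored at 10 and put on the log2 scale. Raw intensities of 65000 or more counted as saturated. The detection threshold of 122 is the median of the gene probes and no measured background. It was planned for tables without detection flags. A fold with 1 day under it or saturated is a lower bound, and none is given with both days under it. A gene was represented by its brightest probe (mean log2 signal). The normalization was tested on simulated data in which the arrays differed by a constant factor. That test does not cover a difference between arrays that varies with brightness.

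Symbols came from the platform annotation (21020 probes) and present names from the GRCm38.p6 gene table. The background of each count is the share of all genes past the same filter that reached 2-fold. Named genes were all members and, from each pathway list, up to 4 genes with the largest differences above the threshold on both days. Cell type markers, Xbp1 and the genes marked in the text as named after their values were seen fall outside that rule. The members and lists were chosen with earlier results of these data known. With 2 arrays in all, their number limits the precision.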

Additional observations from a re-analysis of the deposited data

How the results depend on the processing

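All 14 alternatives were run, with scalings read relative to the median of all genes, which stood at -0.49 under median scaling over all gene probes, 0.09 under median scaling over probes above the threshold on both days, -0.01 under cyclic loess and 0.67 with no normalization. The count of genes at least 2-fold higher was 2 in the main setting. It was 4 with no normalization (median difference 0.35), under scaling over probes above the threshold on both days (0.30), with the threshold at the 95th percentile of empty spots (0.10) and with no detection filter (0.00). It was 1 in the authors' table, with both days required above the threshold, and among genes brighter than the median of detected genes. These counts moved with their background. In the settings with 4, more members were measured and the share of all genes 2-fold higher was above its main value. In those with 1, fewer members were measured and that share was below its main value. The count of genes at least 2-fold lower was 5 in the main setting, 7 with the threshold at empty spots and 7 with no detection filter, 6 under each median scaling and with updated symbols, and 4 with signals below the threshold set to it. It was 3 in the authors' table, 3 with both days required and 1 among the brighter genes. Fewer members were measured in these settings (24, 29 and 15 against 33). The share of all genes 2-fold lower was also below its main value there, and with signals below the threshold set to it. In the settings with 7, more members were measured and that share was above its main value. As read, with the shift of all genes kept in, 18 members were 2-fold higher with no normalization and, with median scaling over all gene probes, 10 were 2-fold lower. Across all genes, 2-fold higher and lower genes numbered 3947 and 315 as read with no normalization and 829 and 2587 under median scaling over all gene probes, against 1360 and 1095 in the main setting. For single genes, 342 of 363 differences stayed within the repeat-spot SD of the main value and 21 did not. That count overstates how stable they were, because settings that change only the threshold or filter leave a gene's difference as it was. Averaging probes and setting low signals to the threshold also leave many genes unchanged. With the mean of all probes, Fgf22 stood at 1.19, Fgf10 at -0.95 and Ereg at -1.08, and with signals below the threshold set to it Fgf2 stood at -1.07 and Kdr at -0.46. No difference of 2-fold or more in the main setting changed sign under any of these alternatives. No paired analysis was possible because each group is 1 sample.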
